A study of Homo sapiens with 16 samples.

Results

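The collagen cross-linking and hydroxylation enzymes were described here as 9 genes: LOX, LOXL1, LOXL2, PLOD1, PLOD2, PLOD3, P4HA1, P4HA2 and SERPINH1. They were taken as the probe sets annotated with exactly 1 of these symbols, which gave 14 of 22277 probe sets on the array, and 9 of the 11963 genes tested. Where a gene had several probe sets, the one with the highest mean over all arrays stood for it. In the RefSeq annotation of GRCh38.p14, LOX and P4HA2 lie on chromosome 5, LOXL1 on 15, LOXL2 on 8, P4HA1 on 10, PLOD1 on 1, PLOD2 on 3, PLOD3 on 7 and SERPINH1 on 11. Every level below is the deposited log2 value of that probe set, and every difference is a difference of log2 values.

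RNA from 4 human breast lines was measured on Affymetrix U133 2.0 arrays, 2 arrays in each of 8 groups. LM24175 and MDAMB231, the lines that the study calls invasive, were stably infected with a RECK construct or with an empty vector (EV). MDAMB231 is an established breast cancer line, and LM24175 is known as a derivative of it selected for growth in the lung. Hs606T and Hs343T, the lines called poorly invasive, were transfected with a siRNA labelled siRECK or a scrambled siRNA labelled siSCR. RECK is a membrane-anchored inhibitor of matrix metalloproteinases. Nothing in the labels says that replicate arrays are from separate cultures. The p-values therefore measure only the spread between arrays, which may be technical.

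Fibrillar collagen is modified before it leaves the cell and again outside it. Inside the endoplasmic reticulum, prolyl 4-hydroxylases, of which P4HA1 and P4HA2 are catalytic subunits, modify prolines that keep the triple helix stable at body temperature. The lysyl hydroxylases PLOD1, PLOD2 and PLOD3 modify lysines, PLOD2 those in the telopeptides at the chain ends, and PLOD3 also attaches sugars. SERPINH1, also called HSP47, is a chaperone that holds the folded procollagen. It is no enzyme, and is counted with the enzymes below for brevity. Outside the cell the copper enzymes LOX, LOXL1 and LOXL2 oxidise lysines and hydroxylysines, and the aldehydes formed cross-link neighbouring molecules. LOX, LOXL2, PLOD2 and P4HA2 have been linked to stiff matrix and spread of breast cancer in other work.

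All 16 arrays had similar value distributions, with medians of 6.42 to 6.57 and lower quartiles of 4.47 to 4.68, and arrays of a group correlated at r = 0.994 to 0.998 across probe sets. In MDAMB231 EV and in the LM24175 construct group, array 1 departed from array 2 in a shared way (r = 0.486 across genes). With 2 arrays in a group, this does not tell which array of each pair was the unusual one. The arrays numbered 1 are called the 2 deviating arrays below, and leaving out both arrays numbered 2 was not tested. Results that rest on these 2 deviating arrays are also given without both, and so are calls elsewhere that they change through the spread shared by all groups. Leaving out an array leaves 1 in its group, whose spread is then taken from the other groups. RECK itself went against the siRNA labels on the probe set used. It measured 11.17 and 11.02 on the Hs606T arrays labelled siRECK, against 8.74 and 8.65 on those labelled siSCR, and 11.31 and 11.24 against 6.07 and 5.52 in Hs343T. These are differences of 5.29-fold in Hs606T and 44.5-fold in Hs343T (limma, adjusted p = 6.65e-06 and 1.28e-10), so no direction is drawn from the siRNA labels. Its 2 other RECK probe sets moved less. They differed by 0.17 and -0.10 in Hs606T, where neither passed, and by 0.46 and 0.27 in Hs343T, where only the first passed. The second lay below the lower quartile on every array. In the invasive lines RECK was 7.39 and 7.76 with the construct and 7.96 and 8.04 with EV in LM24175, and 7.78 and 7.80 against 7.74 and 7.78 in MDAMB231. Whether the probe set used detects the construct was not tested.

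The 4 lines carried unlike markers. The mean level over 11 fibroblast or mesenchymal markers was 5.67 to 6.79 on the 8 invasive arrays and 11.90 to 12.90 on the 8 poorly invasive arrays. That over 9 epithelial markers was 7.39 to 7.85 on the invasive arrays and 5.76 to 6.26 on the poorly invasive ones. CDH1, the epithelial cadherin, lay at 3.75 to 4.31 over all arrays, below the lower quartile of each. EPCAM, an epithelial adhesion protein, lay at 7.97 to 8.96 in the invasive lines and 3.92 to 4.76 in the others. KRT19, also an epithelial marker, did not split this way. It was 9.26 and 9.39 in LM24175 EV, against 10.70 and 10.65 in Hs606T siSCR. The mesenchymal marker VIM lay at 14.16 to 14.50 over all arrays. Of the 9 epithelial markers 5 were called higher and 1 lower in the invasive EV arms than in the siSCR arms, against 34.2% and 38.8% of all genes.

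All 9 enzymes were lower in the invasive lines. With the control arms compared, EV in the invasive lines against siSCR in the poorly invasive lines, all 9 fell and none rose (limma, adjusted p at most 2.28e-08). This was also a common result on the array, where 72.9% of all genes passed, 34.2% higher and 38.8% lower, so the count says little of the enzymes alone. The median difference was -1.93 over the 9 genes and -0.08 over all genes tested. The kind of line, the vector and the siRNA treatment cannot be told apart here, and the part of the fibroblast markers in the difference was not tested.

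Of the oxidases that act outside the cell, LOXL1 differed most and LOXL2 least on the probe sets used. LOXL1, an oxidase best known for elastic fibres, ranged over 4.21 to 7.26 with a median of 6.60 on the invasive arrays, against 10.32 to 11.19 with a median of 10.58 on the poorly invasive arrays. It was 18.1-fold lower in the control arms (95% interval 12.8 to 25.6). LOX ranged over 9.27 to 10.99 with a median of 9.83 on the invasive arrays, against 13.28 to 13.66 with a median of 13.48, and was 9.42-fold lower (8.14 to 10.9). LOXL2, which acts on the collagen of basement membranes among other substrates, ranged over 9.43 to 10.07 with a median of 9.85, against 11.43 to 11.95 with a median of 11.68. It was 3.81-fold lower (3.17 to 4.58). No array of an invasive line reached a poorly invasive one for the 3 oxidases.

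Among the prolyl hydroxylase subunits, P4HA2 fell further than P4HA1. P4HA2 ranged over 9.97 to 10.63 with a median of 10.11 on the invasive arrays and 12.56 to 12.99 with a median of 12.87 on the others, a 5.61-fold lower level (5.18 to 6.08). P4HA1 ranged over 10.55 to 11.04 against 12.00 to 12.43, 2.57-fold lower (2.37 to 2.79). The intervals of the 2 subunits did not overlap. Of the lysyl hydroxylases, PLOD1 ranged over 8.12 to 8.47 on the invasive arrays against 10.15 to 10.37 on the poorly invasive ones, 3.66-fold lower (3.39 to 3.95). PLOD2 ranged over 10.85 to 11.81 against 12.40 to 13.61, 2.83-fold lower (2.45 to 3.27). PLOD3 was closest between the kinds of line, at 10.02 to 10.21 against 10.76 to 11.22, 1.87-fold lower (1.72 to 2.04). SERPINH1 ranged over 9.54 to 10.83 with a median of 10.14 against 11.83 to 12.26 with a median of 12.09, 3.97-fold lower (3.53 to 4.47). All 9 genes thus had their 8 invasive arrays below their 8 poorly invasive arrays, as did 15.4% of all genes, while 20.4% of all genes had them above. All 9 still passed as lower without both deviating arrays, at -3.81 for LOXL1 to -0.88 for PLOD3.

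**Figure D1:**
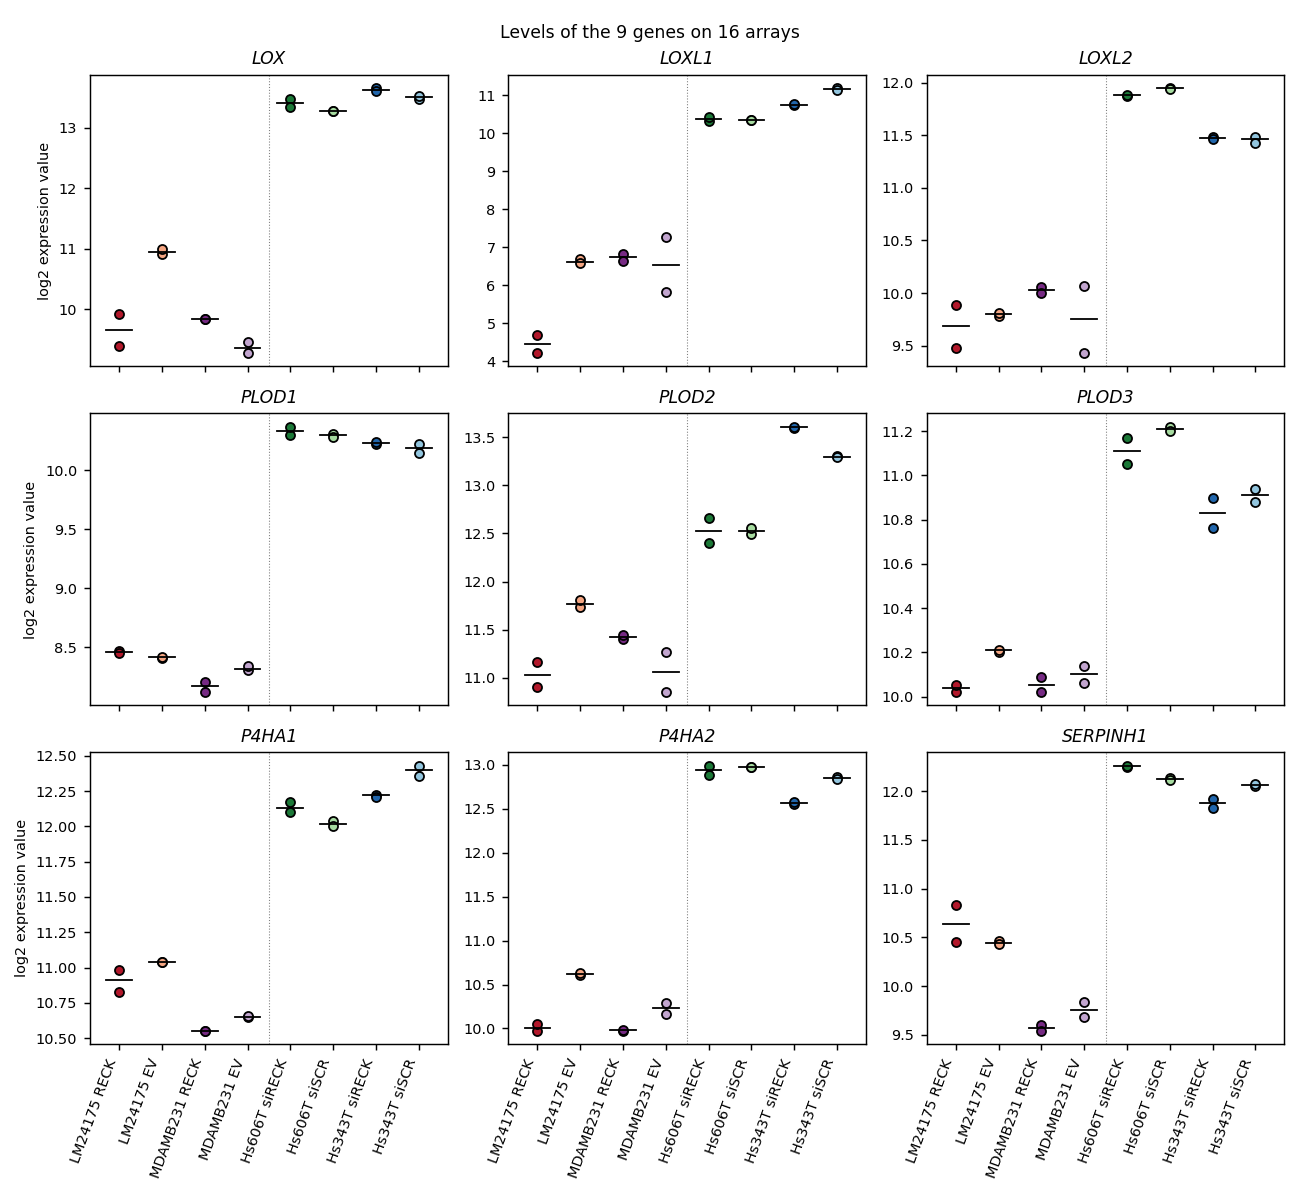
Level of each of the 9 genes on every array (deposited log2 value), by group, with invasive lines left of poorly invasive lines and each treated group left of its control; points are single arrays. The invasive arrays lie below the poorly invasive arrays for every gene, by a gap of 0.55 for PLOD3 up to 3.07 for LOXL1.

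Most measured genes of 4 other collagen pathway lists were also called lower in the invasive lines, where 38.8% of all genes were. Of 16 measured genes that modify or fold procollagen, 14 were lower and 1 higher (median -0.66), among them the collagen chaperone FKBP10 at -3.79. Of 16 that export procollagen or cut its propeptides, 13 were lower and 2 higher (median -0.80). PCOLCE, which enhances cleavage of the C-terminal propeptide, was at -5.31, and the procollagen N-proteinase ADAMTS3 was higher, at 2.32. Of 14 further cross-linking enzymes and fibril regulators 11 were lower and 1 higher (median -4.46) and of 16 substrate chains 15 were lower and 1 higher (median -2.27). Several of these lay below the lower quartiles in the invasive lines, so the sizes of their differences and the list medians are no measured folds. The matrix protein POSTN was 3.03 and 3.13 in LM24175 EV and 3.25 and 3.55 in MDAMB231 EV, against 13.78 and 13.86 in Hs606T siSCR and 11.66 on both Hs343T siSCR arrays. COL3A1 was 3.64 to 4.30 on the 4 invasive EV arrays, against 13.84 to 14.37 on the 4 siSCR arrays. Both genes were below the lower quartile on each invasive EV array. Some of these chains, and LUM, DCN and POSTN of the fibril regulators, also stand in the list of fibroblast markers.

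Between the 2 invasive lines, 5 of the 9 enzymes were higher in LM24175 EV than in MDAMB231 EV, and none was lower. Across all genes 20.8% passed in this comparison, 9.87% as higher and 10.9% as lower. The 5 were LOX, PLOD2, P4HA1, P4HA2 and SERPINH1, and all 9 differences were above 0 with all arrays fitted. The median difference was 0.39 over the 9 genes and -0.01 over all genes.

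LOX differed most. It measured 10.91 and 10.99 on the LM24175 EV arrays, against 9.27 and 9.45 on the MDAMB231 EV arrays. The LM24175 arrays were both higher, by 3.02-fold (2.45 to 3.71, limma, adjusted p = 9.69e-06). PLOD2 measured 11.74 and 11.81 in LM24175 EV, against 10.85 and 11.27 in MDAMB231 EV. It was 1.64-fold higher in LM24175 (1.34 to 2.01, adjusted p = 0.00257). SERPINH1 measured 10.46 and 10.43 in LM24175 EV, against 9.84 and 9.68 in MDAMB231 EV. The chaperone was thus 1.61-fold higher (1.36 to 1.90, adjusted p = 9.13e-04). Both prolyl hydroxylase subunits were 1.31-fold higher (1.17 to 1.47 for each), with P4HA1 at 11.04 on both LM24175 EV arrays against 10.65 and 10.66 in MDAMB231 EV, and P4HA2 at 10.61 and 10.63 against 10.17 and 10.29. Their adjusted p-values were 0.00325 for P4HA1 and 0.0026 for P4HA2.

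LOXL1, LOXL2, PLOD1 and PLOD3 did not pass, with differences of 0.05 to 0.10 and adjusted p-values of 0.434 to 0.897. LOXL1 was 6.68 and 6.57 in LM24175 EV, and 5.81 and 7.26 in MDAMB231 EV. The 2 MDAMB231 EV arrays thus lay on either side of LM24175. Without both deviating arrays, which leaves 1 MDAMB231 EV array, LOXL1 was at -0.63 and LOXL2 at -0.27, both lower in LM24175. The 5 enzymes named above stayed higher in LM24175 there. Without MDAMB231 EV replicate 2 alone, LOXL1 was at 0.81, so its direction depended on which array was left out.

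Of 16 measured substrate chains 7 rose in LM24175 EV and none fell, with 9 not passing and differences down to -0.33 (median 0.39). COL1A1, the main chain of type I collagen, was 7.62 and 7.67 in LM24175 EV against 3.87 and 5.0 in MDAMB231 EV, where the lower value is below that array's lower quartile. Of the modification and folding genes 4 of 16 rose and 1 fell, with FKBP10 at 7.60 and 7.73 against 4.58 and 4.52 (8.66-fold higher, adjusted p = 2.37e-10). FKBP10 is known to act with PLOD2 on telopeptide lysines. Of the export and propeptide genes 6 of 16 rose and none fell, among them SEC24D (0.83), a coat protein of vesicles that carry procollagen. Of the cross-linking and fibril genes 3 of 14 rose and none fell. The collagen-binding protein SPARC measured 11.74 and 11.67 against 4.48 and 4.03, and the other 2 were FN1 (1.75) and EFEMP2 (1.34), a fibulin that binds LOX.

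With the RECK construct in LM24175, 4 of the 9 enzymes fell and none rose: LOX, LOXL1, PLOD2 and P4HA2. Across all genes 6.7% passed, 3.44% as higher and 3.27% as lower. The median difference was -0.17 over the 9 genes and 0.00 over all genes tested. The EV arrays of LM24175 serve here and in the comparison with MDAMB231 EV above, so the 2 sets of values are not independent.

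LOX measured 9.39 and 9.92 with the construct, against 10.91 and 10.99 with EV. Both construct arrays lay below both EV arrays, and the level was 2.45-fold lower (2.00 to 3.02, limma, adjusted p = 3.55e-04). LOXL1 measured 4.21 and 4.68 with the construct, against 6.68 and 6.57 with EV. The lower construct array lay below its array's lower quartile, and the fitted difference was 4.52-fold (2.76 to 7.38, adjusted p = 0.00217). PLOD2 measured 10.90 and 11.16 with the construct, against 11.74 and 11.81 with EV. It was 1.67-fold lower (1.37 to 2.05, adjusted p = 0.00647). P4HA2 measured 9.97 and 10.05 with the construct, against 10.61 and 10.63 with EV, 1.53-fold lower (1.37 to 1.71, adjusted p = 6.36e-04). Without both deviating arrays, which leaves 1 construct array, the differences were -1.03 for LOX, -1.94 for LOXL1, -0.61 for PLOD2 and -0.57 for P4HA2. PLOD2 lost its call without EV replicate 2 (adjusted p = 0.0662) or without RECK replicate 1 (adjusted p = 0.0614).

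The other 5 did not pass in LM24175. LOXL2 was 9.48 and 9.89 with the construct against 9.78 and 9.81 with EV, and PLOD1 was 8.47 and 8.45 against 8.41 and 8.42. PLOD3 was 10.02 and 10.05 against 10.20 and 10.21, and P4HA1 10.98 and 10.83 against 11.04 for both. For both of these genes the construct arrays lay below the EV arrays, as for 24.7% of all genes, with adjusted p-values of 0.276 for PLOD3 and 0.384 for P4HA1. SERPINH1 was 10.83 and 10.45 with the construct against 10.46 and 10.43 with EV (adjusted p = 0.38). It passed as higher, at 0.39, without RECK replicate 2 (adjusted p = 0.034).

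The promoters of the 4 genes that fell are shown because hypoxia is a known inducer of several of the enzymes. LOX, PLOD2 and P4HA2 are among these, but the inducible enzymes are not listed in full. Whether inducibility was more common among the genes that fell than among the other members was not tested. The sequences are RefSeq promoters of GRCh38.p14, 300 bases around a RefSeq transcript start, and the first window was taken where the table held several (3 for LOX). The windows of LOX, LOXL1 and PLOD2 span the gene's outermost annotated start, and that of P4HA2 lies around a start further inside the gene. LOX is at chr5:122078210-122078509 (minus strand), LOXL1 at chr15:73926212-73926511 (plus strand), PLOD2 at chr3:146161135-146161434 (minus strand) and P4HA2 at chr5:132227042-132227341 (minus strand). Capitals mark the core of the hypoxia response element, ACGTG or GCGTG, on either strand.
LOX: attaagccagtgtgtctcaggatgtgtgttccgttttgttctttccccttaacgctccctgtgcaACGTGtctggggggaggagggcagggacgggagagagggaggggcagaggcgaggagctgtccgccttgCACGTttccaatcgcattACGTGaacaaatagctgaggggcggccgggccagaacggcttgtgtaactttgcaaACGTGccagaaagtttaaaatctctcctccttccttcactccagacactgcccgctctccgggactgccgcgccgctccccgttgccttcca
LOXL1: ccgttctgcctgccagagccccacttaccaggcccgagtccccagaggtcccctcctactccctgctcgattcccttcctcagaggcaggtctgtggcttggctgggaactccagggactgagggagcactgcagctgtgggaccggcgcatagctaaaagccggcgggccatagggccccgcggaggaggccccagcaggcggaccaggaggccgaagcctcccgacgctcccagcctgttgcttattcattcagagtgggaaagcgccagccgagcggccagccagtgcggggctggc
PLOD2: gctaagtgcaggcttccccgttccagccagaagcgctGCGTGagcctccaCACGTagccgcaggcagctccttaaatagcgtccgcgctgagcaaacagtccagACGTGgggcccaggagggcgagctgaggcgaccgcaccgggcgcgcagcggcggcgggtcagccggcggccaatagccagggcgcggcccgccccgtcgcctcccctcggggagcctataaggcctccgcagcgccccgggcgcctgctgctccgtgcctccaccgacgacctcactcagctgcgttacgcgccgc
P4HA2: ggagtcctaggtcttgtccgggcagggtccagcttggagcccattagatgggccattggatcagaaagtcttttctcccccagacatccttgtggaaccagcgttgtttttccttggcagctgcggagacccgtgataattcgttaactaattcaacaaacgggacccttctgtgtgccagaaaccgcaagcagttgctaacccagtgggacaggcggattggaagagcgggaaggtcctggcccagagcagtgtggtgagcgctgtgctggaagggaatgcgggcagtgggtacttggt
LOX held 4 such cores and PLOD2 3, while these letters were not in the LOXL1 or P4HA2 window. Of 27305 promoters of this length 48.4% held at least 1. Of the other members with a promoter in the table, PLOD1 held 2, P4HA1 and SERPINH1 1 each and PLOD3 0. A match describes the letters and is not a bound site.

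Hypoxia-inducible genes did not move one way with the construct in LM24175. Of 28 measured, 4 rose and 3 fell (median -0.01), where 3.44% of all genes rose and 3.27% fell. The carbonic anhydrase CA12 was at -1.10, the glycolytic enzymes ALDOC and ENO2 at -0.86 and -0.72, and NDRG1 at 0.68. Of 19 TGF-beta-inducible genes 1 rose and 1 fell. The part of hypoxia or TGF-beta in the enzyme values was not tested.

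Some genes of the neighbouring steps of the pathway passed with the construct in LM24175, where 6.7% of all genes did, 3.44% as higher and 3.27% as lower. Of the modification and folding genes 1 of 16 fell and none rose: P3H3, a partner of PLOD1 in a lysyl hydroxylase complex, at 5.26 and 4.65 with the construct against 5.96 and 6.09 with EV (adjusted p = 0.00178). Of the export genes 1 fell, ADAMTS3, a procollagen N-proteinase, at -0.61, and 1 cross-linking gene, EFEMP2, at -0.46. Of the substrate chains 3 of 16 rose and 1 fell (median 0.18). COL1A2 was 7.12 and 7.33 with the construct against 4.80 and 5.25 with EV, 4.61-fold higher (2.97 to 7.15, adjusted p = 0.00106). COL3A1 was 5.20 and 5.66 against 3.90 and 3.93, both EV values being below the lower quartiles. COL6A3 was 10.13 and 10.59 against 9.05 and 8.95, while COL6A2 was 7.49 and 8.23 against 8.65 and 8.44 (adjusted p = 0.0478).

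In MDAMB231 none of the 9 enzymes passed with the construct, where 0.276% of all genes did, 0.226% as higher and 0.0502% as lower. The lowest adjusted p-value was 0.215, for LOX (limma), and 4 of the 9 had an unadjusted p below 0.05. LOX measured 9.83 on both construct arrays, against 9.27 and 9.45 with EV, a difference of 0.47 in the upward direction. PLOD2 measured 11.40 and 11.44 with the construct, against 10.85 and 11.27. P4HA2 measured 9.97 and 9.98 with the construct, against 10.17 and 10.29 with EV, a difference of -0.25 (adjusted p = 0.223). In all, 6 of the 9 genes had construct arrays that did not overlap the EV arrays, LOX and PLOD2 above them and PLOD1, P4HA1, P4HA2 and SERPINH1 below, while 37.8% of all genes did not overlap. Without both deviating arrays the differences were 0.38 for LOX, 0.15 for PLOD2 and -0.31 for P4HA2, and none of these passed (adjusted p = 0.0787 to 0.641).

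LOXL1 in MDAMB231 depended on a single array. It was 6.82 and 6.64 with the construct, against 5.81 and 7.26 with EV. The fitted difference was 0.20 (adjusted p = 0.852). It was 0.92 without EV replicate 2 and -0.53, the opposite direction, without EV replicate 1, each fit leaving 1 EV array. It was also -0.53 without both deviating arrays. LOXL2 averaged 10.03 with the construct, against 9.43 and 10.07 on the EV arrays, where EV replicate 1 was again the low array. PLOD1 was 8.12 and 8.21 against 8.31 and 8.34, PLOD3 10.09 and 10.02 against 10.06 and 10.14. P4HA1 was 10.55 on both arrays against 10.65 and 10.66, and SERPINH1 9.60 and 9.54 against 9.84 and 9.68. Neither the other modification genes nor the export, cross-linking and substrate lists had a gene that passed in MDAMB231.

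The construct response itself differed between the lines for LOX, LOXL1 and PLOD2, as tested by the interaction of line and construct. Here 3.64% of all genes passed, 1.65% as higher and 1.99% as lower, that is more negative in LM24175. The LM24175 response minus the MDAMB231 response was -1.76 for LOX (95% interval -2.19 to -1.34, limma, adjusted p = 0.00262). It was -2.37 for LOXL1 (-3.37 to -1.37, adjusted p = 0.0173) and -1.11 for PLOD2 (-1.52 to -0.69, adjusted p = 0.00991). Without both deviating arrays, which leaves 1 array in a group of each line, LOX was at -1.41, LOXL1 at -1.41, PLOD2 at -0.77 and P4HA2 at -0.26. With the replicate block LOXL1 lost its call (adjusted p = 0.0539). It also lost its call without MDAMB231 RECK replicate 1, either LM24175 EV array or LM24175 RECK replicate 1 (adjusted p = 0.0606 to 0.0735), and PLOD2 did so without LM24175 EV replicate 2 (adjusted p = 0.0505). P4HA2 was at -0.61 with the construct in LM24175 and -0.25 in MDAMB231, and the difference of -0.36 did not pass (adjusted p = 0.0811). The other 5 differences ran from -0.40 for LOXL2 to 0.39 for SERPINH1, with adjusted p-values of 0.193 to 0.918.

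Over the 4 invasive groups these genes fell into unlike orders. LOX averaged 10.95 ± 0.05 in LM24175 EV, 9.83 ± 0.00 in MDAMB231 RECK, 9.65 ± 0.37 in LM24175 RECK and 9.36 ± 0.13 in MDAMB231 EV (SD, n = 2 each), and the arrays of the lower 3 groups overlapped from one neighbour to the next. LOXL1 averaged 6.73 ± 0.13 in MDAMB231 RECK, 6.62 ± 0.08 in LM24175 EV and 6.53 ± 1.02 in MDAMB231 EV, whose arrays overlapped, and 4.45 ± 0.33 in LM24175 RECK, which stood apart. PLOD2 averaged 11.77 ± 0.05 in LM24175 EV, 11.42 ± 0.03 in MDAMB231 RECK, 11.06 ± 0.29 in MDAMB231 EV and 11.03 ± 0.19 in LM24175 RECK. P4HA2 averaged 10.62 ± 0.01 in LM24175 EV, 10.23 ± 0.09 in MDAMB231 EV, 10.01 ± 0.06 in LM24175 RECK and 9.98 ± 0.01 in MDAMB231 RECK.

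**Figure D2:**
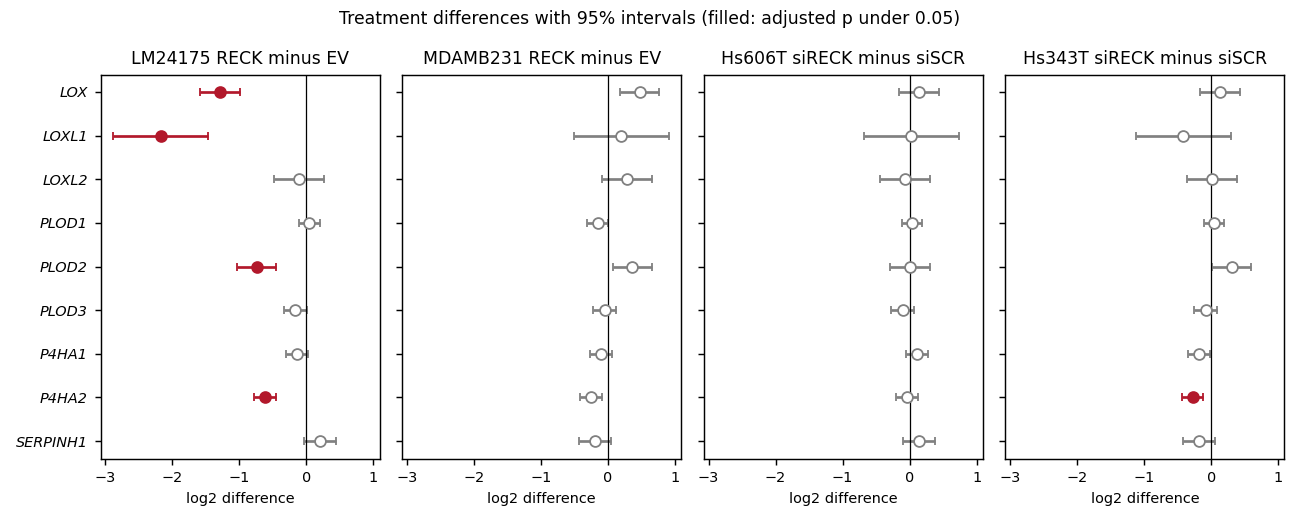
Difference of each of the 9 genes with each treatment in each line (log2, treated minus control), with 95% intervals from limma. LOX, LOXL1, PLOD2 and P4HA2 lie below 0 with their whole interval in LM24175, and most siRNA differences lie close to 0.

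In Hs343T, 1 of the 9 enzymes passed between the arrays labelled siRECK and siSCR, where 29.3% of all genes passed, 12.0% as higher and 17.4% as lower. P4HA2 measured 12.56 and 12.58 on the arrays labelled siRECK, against 12.86 and 12.84 on those labelled siSCR. It was 1.21-fold lower (1.08 to 1.36, limma, adjusted p = 0.0136), and lost its call when any of its own 4 arrays was left out (adjusted p = 0.0548 to 0.0741) or the replicate number was a block (0.056). The median difference was -0.08 over the 9 genes and -0.06 over all genes. Interferon-stimulated genes moved far more: all 32 measured were higher, and their mean level was 12.24 and 12.25 on the siRECK arrays against 6.35 and 6.34 on the siSCR arrays. The part of that response in the enzyme values was not tested.

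LOX in Hs343T was 13.66 and 13.61 on the arrays labelled siRECK, against 13.48 and 13.52 labelled siSCR. LOXL1 was 10.74 and 10.76 against 11.19 and 11.14, and LOXL2 11.48 and 11.46 against 11.48 and 11.43. LOXL1 had an adjusted p-value of 0.392 with the spread shared by all groups, which was widest in MDAMB231 EV (SD 1.02) and LM24175 RECK (SD 0.33), the groups with the deviating arrays. PLOD1 was 10.22 and 10.24 against 10.15 and 10.22, PLOD2 13.60 and 13.61 against 13.31 and 13.30, and PLOD3 10.90 and 10.76 against 10.94 and 10.88. P4HA1 was 12.22 and 12.21 against 12.43 and 12.36, and SERPINH1 11.92 and 11.83 against 12.05 and 12.07. The adjusted p-values were 0.118 for PLOD2, 0.104 for P4HA1 and 0.252 for SERPINH1. LOXL1 passed as lower without both deviating arrays, at -0.42 (adjusted p = 0.00211), as did P4HA1 at -0.18 (0.0376) and SERPINH1 at -0.18 (0.0333), and PLOD2 passed as higher, at 0.31 (0.021).

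The neighbouring lists moved in parts in Hs343T. Of the modification and folding genes 4 of 16 fell and none rose, with FKBP14 at -0.47 and P3H1, a prolyl 3-hydroxylase, at -0.40. Of the export genes 2 rose and 2 fell, and MIA3, which loads procollagen into vesicles, was 8.69 and 8.68 on the siRECK arrays against 7.25 and 7.22. Of the cross-linking and fibril genes 2 rose and 2 fell. The transglutaminase TGM2, which cross-links proteins through glutamine and lysine, was 10.33 and 10.56 against 8.69 and 8.73 (adjusted p = 4.91e-07). The basement membrane chains COL4A1 and COL4A2 rose by 1.05 and 0.73.

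In Hs606T none of the 9 enzymes passed, where 1.2% of all genes did, 0.811% as higher and 0.385% as lower, and none had an unadjusted p below 0.05 (limma, lowest adjusted p 0.647, for P4HA1). The differences ran from -0.10 for PLOD3 to 0.14 for LOX. LOX was 13.48 and 13.34 on the arrays labelled siRECK against 13.28 on both labelled siSCR, LOXL1 10.32 and 10.41 against 10.35 and 10.33, and LOXL2 11.87 and 11.88 against 11.95 and 11.94. PLOD1 was 10.30 and 10.37 against 10.31 and 10.28, PLOD2 12.66 and 12.40 against 12.49 and 12.56, and PLOD3 11.05 and 11.17 against 11.22 and 11.20. P4HA1 was 12.17 and 12.10 against 12.04 and 12.00, P4HA2 12.89 and 12.99 against 12.98 for both, and SERPINH1 12.25 and 12.26 against 12.13 and 12.11. Interferon-stimulated genes moved here too, 22 of 32 higher, while no gene of the modification, export, cross-linking or substrate lists passed. The siRNA responses of the 2 lines did not differ past the threshold for any enzyme (20.4% of all genes did, 11.6% higher and 8.72% lower), with P4HA1 nearest at 0.29 (adjusted p = 0.0832). Without both deviating arrays LOXL1 at 0.45 (adjusted p = 0.0134), P4HA1 (0.0273) and SERPINH1 at 0.32 (0.0176) passed, the Hs606T difference being the higher in each.

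Hs606T and Hs343T differed in 4 of the 9 enzymes in their siSCR arms, 2 in each direction, against 36.8% of all genes, 18.4% as higher and 18.5% as lower. PLOD2 was 12.49 and 12.56 in Hs606T, against 13.31 and 13.30 in Hs343T, 1.71-fold lower (1.40 to 2.10, limma, adjusted p = 6.89e-04). P4HA1 was 12.04 and 12.00 in Hs606T, against 12.43 and 12.36 in Hs343T, a difference of -0.37 (adjusted p = 0.00208). PLOD3 was 11.22 and 11.20 in Hs606T against 10.94 and 10.88 in Hs343T (adjusted p = 0.0108). LOXL2 was 11.95 and 11.94 against 11.48 and 11.43 (adjusted p = 0.0413). These last 2 were higher in Hs606T by 0.30 and 0.49, and LOXL2 lost its call in most fits without 1 array (adjusted p = 0.0535 to 0.143). PLOD3 lost its call without Hs343T siSCR replicate 2 (0.074) or Hs606T siSCR replicate 1 (0.0613). LOXL1 was 10.35 and 10.33 in Hs606T against 11.19 and 11.14 in Hs343T, and did not pass (adjusted p = 0.065). It passed as lower without both deviating arrays (2.79e-05), with only the arrays compared (0.00192), with quantile normalization (0.0481) and with median centring (0.0461). LOX, at -0.22, passed as lower without both deviating arrays (0.0219).

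The heat shock element of SERPINH1 is shown because the chaperone is known as a target of heat shock factor. The promoter is at chr11:75562003-75562302 of GRCh38.p14 (RefSeq, plus strand), with capitals over GAANNTTC or TTCNNGAA, on either strand, which occurs here as 2 overlapping matches. It is the first of 2 windows in the table.
SERPINH1: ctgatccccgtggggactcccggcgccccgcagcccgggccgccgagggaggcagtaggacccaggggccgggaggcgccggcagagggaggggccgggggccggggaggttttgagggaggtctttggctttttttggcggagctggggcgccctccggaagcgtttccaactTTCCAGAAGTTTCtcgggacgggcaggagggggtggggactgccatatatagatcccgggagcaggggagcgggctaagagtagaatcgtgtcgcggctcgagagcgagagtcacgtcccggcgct
Of 27305 promoters 13.7% held such a match, and of the other members PLOD1 held 1. In LM24175 EV against MDAMB231 EV, where SERPINH1 was higher, 0 of 14 heat shock factor targets rose and 1 fell (DNAJB1, at -0.40). Over all genes 9.87% rose and 10.9% fell there. In the invasive against the poorly invasive lines, where SERPINH1 was lower, 10 of the 14 rose and 3 fell, against 34.2% and 38.8% of all genes. The part of heat shock factor in the SERPINH1 values was not tested.

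LOX, LOXL2 and PLOD2 had further probe sets, which moved like the one used in some comparisons and not in others. With the construct in LM24175, the 3 LOX probe sets were at -1.29, -1.27 and -0.58 and both PLOD2 probe sets at -0.74 and -0.70, and all 5 passed with p-values adjusted over all 19064 probe sets (limma). For the difference in construct response all 3 LOX probe sets passed, and of the 2 PLOD2 probe sets 1 passed (adjusted p = 0.0116) and 1 did not (adjusted p = 0.141). In Hs343T the second PLOD2 probe set rose by 0.51 on the arrays labelled siRECK (adjusted p = 0.0324), while the one used did not pass. The signs differed in several comparisons that did not pass. LOX in Hs343T was 0.14 on the probe set used and -0.29 and -0.37 on the others, and PLOD2 with the construct in MDAMB231 was 0.36 against -0.03. LOX in Hs606T against Hs343T siSCR was -0.22 on the one used and 0.22 and 0.38 on the others, of which the last passed (adjusted p = 0.0479). LOXL2 in LM24175 EV against MDAMB231 EV was 0.05 on the one used and -0.49 and -0.18 on the others. LOXL2 was also uneven in size, at -1.93, -0.58 and -0.11 in the invasive against the poorly invasive lines. The last of these lay near the lower quartiles and did not pass (adjusted p = 0.29). In the same comparison LOX was 9.42-fold lower on the probe set used and 14.3-fold (12.4 to 16.4) and 9.72-fold on the others. The interval of 12.4 to 16.4 overlaps that of LOXL1 (12.8 to 25.5). PLOD2 was 2.83-fold lower on the probe set used and 4.05-fold on the other, against 3.66-fold for PLOD1, so their order depended on the probe set.

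**Figure D3:**
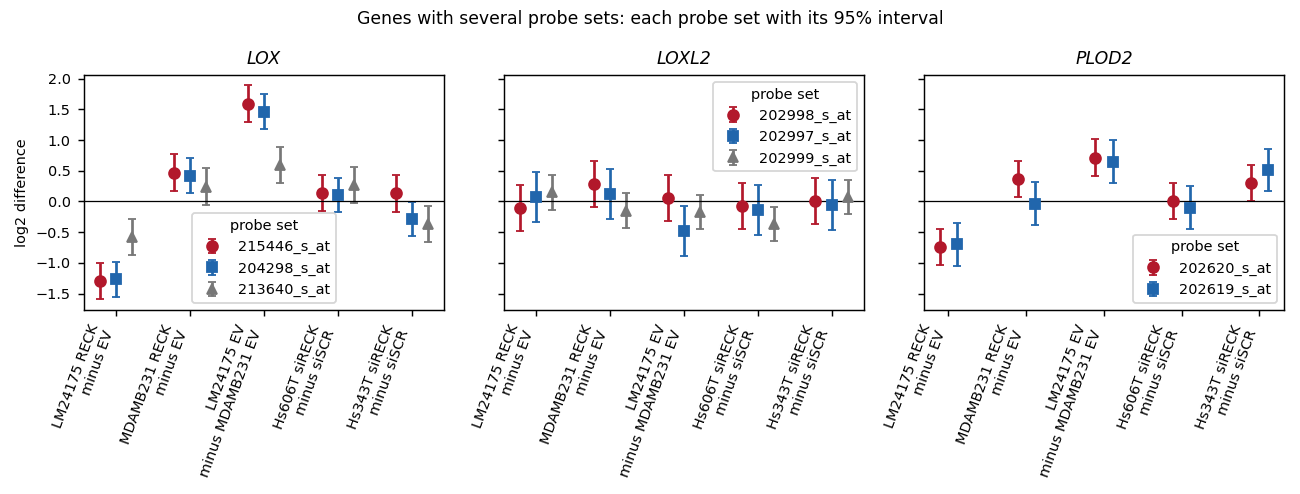
Differences (log2, with 95% intervals) of each probe set of LOX, LOXL2 and PLOD2 in 5 comparisons. The LOX and PLOD2 probe sets lie on 1 side of 0 with the construct in LM24175, and their intervals there exclude 0.

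**Figure D4:**
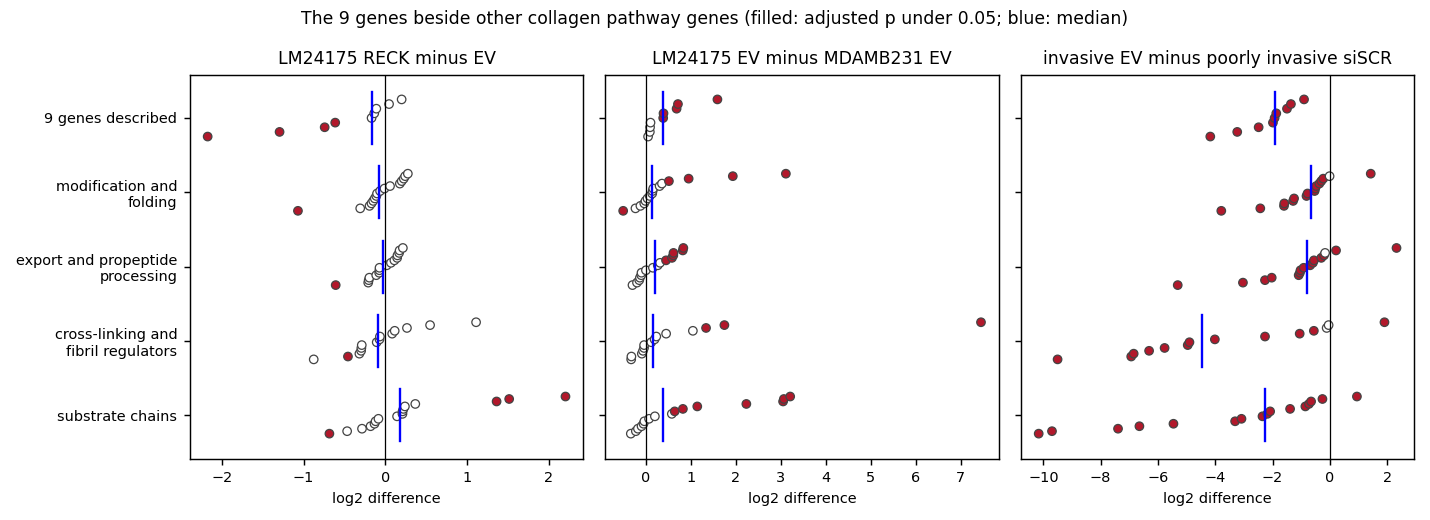
Difference (log2) of each of the 9 genes and of each measured gene in 4 collagen pathway lists, in 3 comparisons; filled points passed limma's test and blue lines are medians. The median of the 9 genes lies at -0.17 with the construct in LM24175, 0.39 in LM24175 EV against MDAMB231 EV and -1.93 in the invasive against the poorly invasive lines.

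The genes whose 8 group means were most like those of an enzyme were named among 5376 genes whose means spanned at least 1 log2 unit. These 8 means share the split between invasive and poorly invasive lines, so high correlations describe mainly that split. PLOD1 was closest to COL5A2 (r = 0.999), a chain of type V collagen, and LOXL2 to THBS2 (r = 0.998), a matricellular protein. SERPINH1 was closest to TGFBI (r = 0.995), PLOD3 to HSD17B1 (0.995), and P4HA1 to ANXA2P1 (0.997). LOX was closest to DHRS3 (0.995), LOXL1 to KLHDC4 (0.994), PLOD2 to GGPS1 (0.999) and P4HA2 to PPDPF (0.996).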

How the data were processed

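Total RNA from 4 breast lines was hybridised to Affymetrix arrays, per the labels' protocols. The authors imported the scans into Partek Genomics Suite, per the series' design text and the submitters' processing notes, and the deposited values are on a log2 scale. Its version and the normalization method are not stated in the sources read, and the log base is not either: it was read from the values. No raw intensities were used, and the number of arrays limits the precision.

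Probe sets with 1 gene symbol in the platform annotation (19064) were reduced to 11963 genes by the highest mean. The 8 group means were fitted to all 16 arrays with limma 3.58.1 in R 4.3.3, with empirical Bayes and Benjamini-Hochberg adjustment over all genes, 2-sided, and adjusted p under 0.05 as the threshold. There were 9 comparisons. The fit was tested on simulated data, with 50 genes changed at each fold size per treatment comparison and independent noise on each array. In the treatment comparisons it recovered 38% to 64% of 1.5-fold changes and 86% to 96% of 2-fold changes, with 6 to 11 false calls. Small changes can thus be missed. The number of true changes in the data is not known, and the deviating arrays share a departure, so the rates may not carry over. The text names RECK, the 9 enzymes, up to 4 passing genes of each list with the largest differences, and the genes most like each enzyme. The members and lists were chosen with earlier results of these data known. Alternatives covered normalization, probe set choice, a filter on dim genes, the fit, a replicate block, a minimum fold and left-out arrays.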

Additional observations from a re-analysis of the deposited data

Results flagged for a closer look

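The construct response of 3 enzymes differed between LM24175 and MDAMB231 by the interaction test. The LM24175 response minus the MDAMB231 response was -1.765 for LOX, which measured 9.39 and 9.92 with the construct against 10.91 and 10.99 with EV in LM24175, and 9.83 on both construct arrays against 9.27 and 9.45 in MDAMB231. It was -2.371 for LOXL1 and -1.106 for PLOD2. These passed limma with adjusted p-values of 0.00262, 0.0173 and 0.00991. LOXL1 lost its call with the replicate block (0.0539), and LOXL1 (0.142) and PLOD2 (0.092) lost theirs with only the arrays compared.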

How the results depend on the processing

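The number of arrays limits these results, with 2 in each group. Fits without 1 array or without both deviating arrays leave 1 array in each group concerned, so their calls rest on the spread of the other groups. All 9 enzymes passed in the invasive against the poorly invasive lines, and 0 passed in Hs606T, in every alternative run. With the construct in LM24175, 4 enzymes passed as reported, 2 when only the arrays compared were fitted (LOX and LOXL1), and 3 to 5 when 1 array was left out. For the difference in construct response 3 passed, against 1 with only the arrays compared (LOX) and 1 to 5 without 1 array. For LM24175 EV against MDAMB231 EV 5 passed, 2 with only the arrays compared, 3 at 1.5-fold or more, and 5 to 6 without 1 array. For MDAMB231 with the construct 0 passed, 1 without both deviating arrays (LOXL1), and 0 to 3 without 1 array. For Hs606T against Hs343T 4 passed, 1 at 1.5-fold or more, and 2 to 5 without 1 array. For Hs343T 1 passed as reported, 2 with the mean of probe sets, 2 with trend and robust, 3 with only the arrays compared, 0 at 1.5-fold or more, 5 without both deviating arrays, and 0 to 3 without 1 array. For the siRNA response difference 0 passed, 1 without the dimmest genes, 1 with trend and robust, 2 with only the arrays compared and 3 without both deviating arrays. The cause of these changes was not tested.

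No pairing of the arrays by replicate number was seen, though whether same-numbered arrays were handled together is not known. Within each line, the difference between the replicate arrays of the treated group was correlated with that of the control group. Both differences were taken in the same order of replicate number. These differences, not the array levels, correlated at -0.015 in MDAMB231, -0.037 in LM24175, -0.05 in Hs343T and 0.011 in Hs606T. With the replicate block 0 enzymes passed in Hs343T and 2 in the difference of construct response, and the 4 calls in LM24175 were kept.

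Single differences that changed sign were mostly small. With quantile normalization LOXL2 in Hs343T was -0.013, PLOD2 and LOXL1 in Hs606T -0.017 and -0.008, and LOX in the siRNA difference -0.041. With median centring P4HA1 in the construct difference was 0.023 and LOX in the siRNA difference -0.048. With the mean of probe sets LOXL2 was 0.036 in LM24175 with the construct and -0.204 between the invasive EV arms, LOX -0.172 in Hs343T and 0.125 in Hs606T against Hs343T, and PLOD2 -0.046 in Hs606T. Without both deviating arrays LOXL2 was -0.037 in MDAMB231, 0.097 in LM24175, 0.134 in the construct difference and -0.271 between EV arms, and LOXL1 -0.526 in MDAMB231 and -0.633 between EV arms. Without 1 array the ranges that crossed 0 were, for LOXL1, -0.016 to 0.072 in Hs606T, -0.633 to 0.811 between EV arms and -0.526 to 0.917 in MDAMB231. For LOXL2 they were -0.014 to 0.036 in Hs343T, -0.271 to 0.371 between EV arms, -0.319 to 0.097 in LM24175 and -0.037 to 0.605 in MDAMB231. For the others they were -0.107 to 0.049 for P4HA1 in the construct difference, -0.091 to 0.005 for P4HA2 and -0.126 to 0.139 for PLOD2 in Hs606T, and -0.068 to 0.072 for LOX, -0.044 to 0.032 for PLOD1 and -0.087 to 0.051 for PLOD3 in the siRNA difference.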

Other observations

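Prolyl and lysyl hydroxylases need ascorbate, iron and alpha-ketoglutarate. Of 12 measured genes of a list on cofactor handling, which also holds the copper transporters SLC31A1 and ATP7A and the alpha-ketoglutarate-consuming OGDH, 5 fell and 1 rose on the Hs343T arrays labelled siRECK (median -0.37, against -0.06 over all genes). SLC23A2, a transporter of ascorbate, measured 5.22 and 5.33 on those arrays, against 6.88 and 7.04 on the arrays labelled siSCR, a difference of -1.68 (limma, adjusted p = 4.66e-07). In Hs606T it measured 7.09 and 6.89 on the arrays labelled siRECK, against 6.99 and 6.85, and no gene of the list passed. With the construct in LM24175 1 of the 12 rose and 1 fell, which was IDH2, a mitochondrial source of alpha-ketoglutarate, at -0.74. IDH2 was higher in LM24175 EV than in MDAMB231 EV by 1.13.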
